A study of Mus musculus with 6 samples.

Results

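The set described here holds 36 genes of lipid droplet storage and fatty acid metabolism, found by their exact symbols among the 35275 gene rows of the deposited count table; each of the 36 symbols matched 1 row. RNA from 6 samples of primary microglia of C57/BL6 mice was sequenced. In 3 of them, the controls, no further treatment is recorded. The other 3 were co-cultured for 2 days with regulatory T cells (Tregs) held in permeable inserts, which had first been kept for 24 hours with brain slices from mice 5 days after tMCAO, a temporary block of a cerebral artery that models ischemic stroke. No slice or insert is recorded for the controls, so the Tregs, material carried over from the slices and the insert itself cannot be told apart. The comparison asks how microglia exposed to such Tregs change their lipid-handling transcripts.

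Cells keep surplus fatty acids as triglyceride in lipid droplets, which are coated by perilipins. Fatty acids are first activated to acyl-CoA, joined stepwise to glycerol, and released again by lipases. They can be made new from acetyl-CoA, elongated and desaturated, or burned in mitochondria after import through the carnitine shuttle. Microglia store lipid in droplets when they take up myelin and cell debris, and droplet-rich microglia have been described in aged and injured brain.

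The 36 genes changed in both directions, and mostly by little. Hilpda, an inhibitor of the main triglyceride lipase, rose 3.59-fold, Lpin1, a phosphatidate phosphatase, fell 4.51-fold, and Scd2, a desaturase, fell 1.8-fold. In the mitochondrial oxidation group 5 of 7 genes fell and 2 rose, and Plin2, the dominant droplet coat gene, rose 1.35-fold. Of 35 genes that passed the filter on low counts, 11 rose and 15 fell (edgeR's quasi-likelihood test, adjusted p below 0.05 over all 13274 genes tested). Over all genes tested 50.9% were called, 25.9% higher and 25% lower, against 74.3% of the set. Of all calls 50.8% were higher, and between 40% and 41% under upper-quartile scaling, under library totals or in the FPKM table. Only 3 of the 35 were called beyond a 1.5-fold change (8.57%), where 11.3% of all genes were, 6.09% higher and 5.21% lower. The median log2 fold change of the set, co-cultured minus control, was -0.08, against -0.01 over all genes tested. The groups did not overlap at 29 of the 35 genes, and at 57.2% of all genes.

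**Figure D1:**
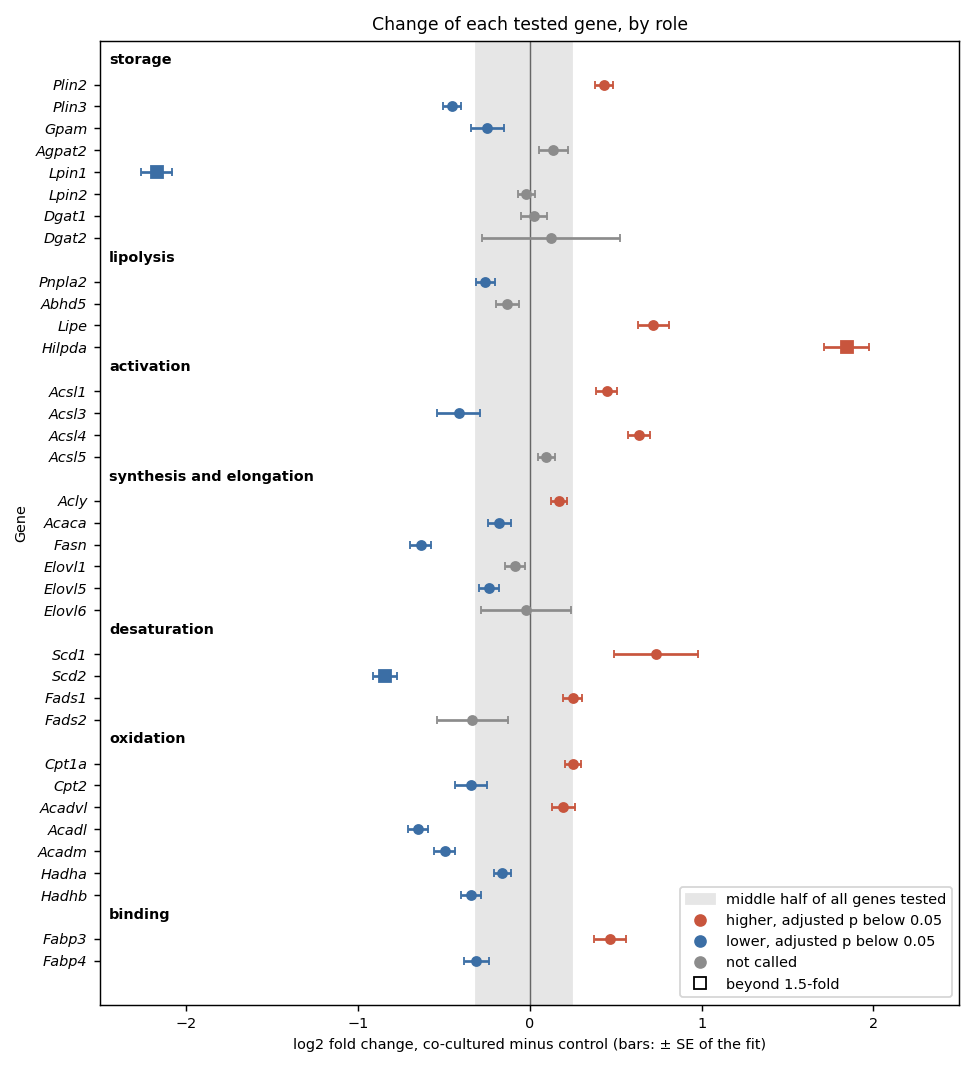
log2 fold change of the 35 tested genes (co-cultured minus control, bars are ± the SE of the fit, n = 3 per group), grouped by role; red and blue mark genes called higher and lower at an adjusted p below 0.05, grey those not called, and squares those called beyond 1.5-fold. Lpin1 at -2.17, Scd2 at -0.85 and Hilpda at 1.84 stand outside the range of the other genes, which lie between -0.65 and 0.74.

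The libraries held 16972758 to 22084542 counts. Values of single genes are CPM (reads relative to library size) after TMM scaling, given as mean ± SD over 3 libraries. Levels of different genes are compared only by the authors' deposited FPKM, which also divides by gene length. Microglial markers were present in both groups, with Csf1r at 2795 ± 28.4 CPM in controls and 2476 ± 158 CPM with co-culture, while P2ry12 was low at 9.07 ± 0.928 and 13 ± 1.53 CPM. Adipocyte markers, a check because several of the 36 genes are best known from fat cells, summed over 5 genes to 0 to 0.115 CPM in controls and 0.243 to 0.379 CPM with co-culture, with Lep at 0 in all 6 libraries. The defining T cell genes Cd2 and Ctla4 were at 0 in all libraries and Cd3e had 0 counts in each control and 10, 2 and 3 counts with co-culture. Cd4 was called higher, at 2.53 ± 0.726 and 6.41 ± 0.178 CPM, and Foxp3 lower, at 3.22 ± 0.313 and 1.63 ± 0.194 CPM; their source was not tested. The T cell list of 10 genes summed to 116 to 130.4 CPM in controls and to 49 to 53.4 CPM with co-culture, most of it Cd28 at 119 ± 8.39 and 42.7 ± 2.72 CPM. In such bulk samples, fewer cells of a type and less RNA per cell cannot be told apart.

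By length-scaled level, Plin2 stood far above every other gene of the set, with 1372 ± 49 FPKM in controls and 1767 ± 18.6 FPKM after co-culture. The next highest control levels were those of Cpt1a (70.4 ± 1.33 FPKM), Fabp4 (67.7 ± 5.22 FPKM), Hadha (63.8 ± 0.933 FPKM) and Plin3 (63.2 ± 2.06 FPKM). The libraries of Cpt1a and Fabp4 overlapped, as did those of Fabp4, Hadha and Plin3. At the other end, G0s2, Elovl6, Scd1 and Dgat2 had between 0.329 and 0.381 FPKM in controls, and their libraries overlapped. After co-culture the order at the top was Plin2, Cpt1a and Acly, and Hilpda moved from rank 22 to rank 12 of 36. Lpin1 moved from rank 26 to rank 32.

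**Figure D2:**
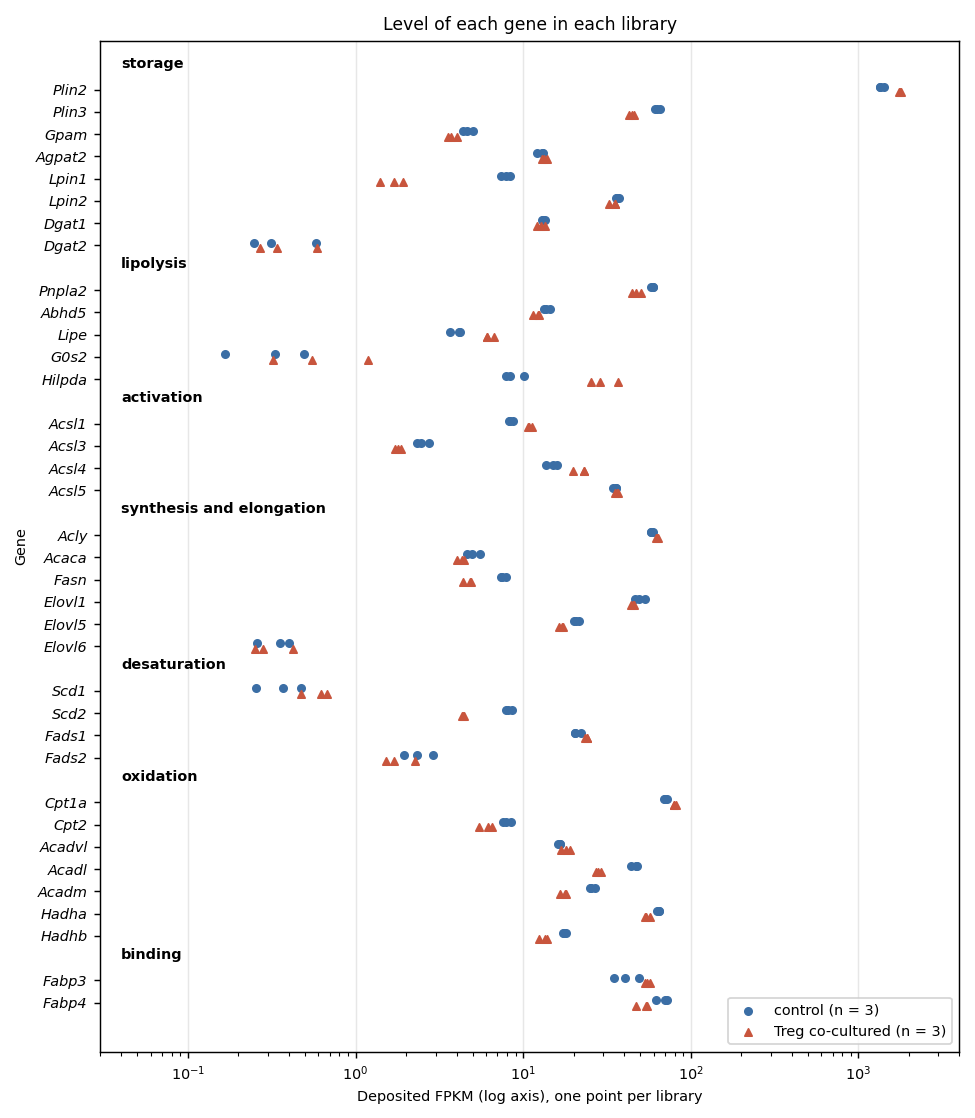
Deposited FPKM of the 36 genes in each library on a log axis, control libraries as blue circles and Treg co-cultured libraries as red triangles, grouped by role. Plin2 lies above 1000 FPKM in all 6 libraries, and G0s2, Dgat2, Elovl6 and Scd1 lie near or below 1 FPKM.

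Of the 8 storage genes, 1 rose, 3 fell and 4 did not pass the test (50% called, against 50.9% of all genes tested). Their median log2 fold change was 0.002. Plin2, which coats droplets and shields their triglyceride from lipases, had 2455, 2499 and 2647 CPM in the control libraries and 3427, 3439.7 and 3379.8 CPM in the co-cultured ones. All co-cultured libraries lay above all controls, a log2 fold change of 0.43 ± 0.05 (SE; adjusted p = 1.06e-08). Plin3, an exchangeable perilipin of newly formed droplets, moved the other way, from 134 ± 4.69 to 97.6 ± 2.62 CPM (1.37-fold lower, adjusted p = 7.21e-09). Plin2 held 95.6 ± 0.0754% of the summed FPKM of both perilipins in controls and 97.6 ± 0.0823% after co-culture.

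Lpin1 encodes lipin 1, the phosphatidate phosphatase that makes diacylglycerol, the substrate of the last step of triglyceride assembly, and that also acts in the nucleus as a coactivator. It lies on chromosome 12, 16535669 to 16610966, minus strand (GRCm38, GENCODE M21). Its level was 43.3, 45.8 and 40.7 CPM in controls and 8.09, 11 and 9.67 CPM with co-culture, so that every co-cultured library held well below what any control held. The log2 fold change was -2.17 ± 0.09 (SE; edgeR adjusted p = 1.39e-19, and 6.59e-17 against a 1.5-fold change). Its paralog Lpin2 was not called, at 201 ± 4.38 and 198 ± 10.4 CPM (log2 fold change -0.02 ± 0.05, adjusted p = 0.777), and held 82.3 ± 0.704% of the summed FPKM of both lipins in controls and 95.4 ± 0.895% after co-culture.

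The other steps of triglyceride assembly moved little. Gpam, the mitochondrial acyltransferase of the first step, was called lower, from 17.6 ± 1.07 to 14.8 ± 0.893 CPM (edgeR adjusted p = 0.0295). That call was lost without control replicate 1 (0.136), without control replicate 2 (0.0552), without co-cultured replicate 1 (0.109), without co-cultured replicate 2 (0.0743) and with DESeq2 (0.104). Agpat2, of the second acylation, had 18.5 ± 0.742 and 20.4 ± 0.989 CPM (log2 fold change 0.14 ± 0.09, adjusted p = 0.189). Dgat1, which adds the last acyl chain, had 24.3 ± 0.704 and 24.7 ± 1.53 CPM (log2 fold change 0.02 ± 0.08, adjusted p = 0.823). The unrelated enzyme of the same step, Dgat2, was near the floor at 0.84 ± 0.391 and 0.924 ± 0.389 CPM, with too few counts for a narrow interval (log2 fold change 0.12 ± 0.4).

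Among other storage genes chosen by function, 4 of 13 tested were called higher and 1 lower (38.5% called, against 50.9% of all genes). Soat2, which esterifies cholesterol for storage in droplets, rose from 1.85 ± 0.548 to 10.1 ± 1.45 CPM. Soat1, of the same reaction, was the 1 called lower, from 602 ± 23.4 to 539 ± 24.6 CPM. By FPKM Soat1 was the higher of both, at 73.5 ± 3.1 and 62.8 ± 2.39, against 0.855 ± 0.256 and 4.46 ± 0.671 for Soat2. Agpat1 rose from 121 ± 2.95 to 149.9 ± 7.14 CPM and Gpat4, which the table names Agpat6, from 85.8 ± 2.27 to 105 ± 5.7 CPM.

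Release of stored fat was represented by 5 genes, of which 4 were tested. The 5 take in Hilpda and G0s2, which inhibit release, so a rise in this group need not mean more release. Of these, 2 rose, 1 fell and 1 did not pass the test (75% called, against 50.9% of all genes). The median log2 fold change of the 4 was 0.29, with the inhibitor Hilpda at 1.84, Lipe at 0.72, Abhd5 at -0.13 and Pnpla2 at -0.26. Pnpla2 encodes adipose triglyceride lipase, which makes the first cut. It had 148, 154 and 154 CPM in controls and 137, 119 and 126 CPM with co-culture, with no overlap, and fell by a small amount (log2 fold change -0.26 ± 0.05, SE; adjusted p = 1.51e-04). Its coactivator Abhd5 had 42.6 ± 2.07 and 38.9 ± 1.83 CPM and was not called (edgeR adjusted p = 0.104), but was called lower under upper-quartile scaling (0.0114), under library totals (0.0142) and in the FPKM table (0.0229 and 0.0232 at pseudocounts of 0.1 and 1). Lipe, hormone-sensitive lipase, which acts on diacylglycerol, rose from 14.5 ± 1.11 to 23.9 ± 1.48 CPM (1.64-fold, adjusted p = 3.19e-08).

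Hilpda and G0s2 encode small proteins that inhibit adipose triglyceride lipase, and Hilpda is known as a gene induced by hypoxia and by fatty acids. Hilpda (chromosome 6, 29272488 to 29275446, plus strand) had 7.57, 8.02 and 9.76 CPM in controls and 29.1, 36.6 and 25.5 CPM with co-culture. The lowest co-cultured library was above the highest control, and the co-cultured libraries varied more. The log2 fold change was 1.84 ± 0.13 (SE; edgeR adjusted p = 9.52e-10, and 6.72e-08 against a 1.5-fold change). G0s2 did not pass the filter, with 3, 7 and 6 counts in the controls and 6, 10 and 21 after co-culture, and no difference was tested at this depth.

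Plin2 and Hilpda both act to keep triglyceride in droplets and both rose, so the 300 bases around their transcript starts are shown (250 before and 50 after, RefSeq, GRCm38.p6). Capitals mark a CCAAT box and the E-box CACGTG in Plin2, 73 and 4 bases before the start, and the hypoxia response core ACGTG in Hilpda, 43 bases before the start. Hilpda has 2 such windows for 2 annotated starts, overlapping by 162 bases, and the one shown is the 1 that holds ACGTG. Its start, at 29272626, lies inside the gene's span, which begins at 29272488, and so does the marked ACGTG.
Plin2 (chr4:86670010-86670309, minus strand): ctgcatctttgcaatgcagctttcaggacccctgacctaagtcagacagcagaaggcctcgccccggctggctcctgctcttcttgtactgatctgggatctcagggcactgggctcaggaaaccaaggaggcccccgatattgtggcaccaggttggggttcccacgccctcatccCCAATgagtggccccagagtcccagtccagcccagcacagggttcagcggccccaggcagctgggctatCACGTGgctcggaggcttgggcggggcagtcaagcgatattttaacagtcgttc
Hilpda (chr6:29272376-29272675, plus strand): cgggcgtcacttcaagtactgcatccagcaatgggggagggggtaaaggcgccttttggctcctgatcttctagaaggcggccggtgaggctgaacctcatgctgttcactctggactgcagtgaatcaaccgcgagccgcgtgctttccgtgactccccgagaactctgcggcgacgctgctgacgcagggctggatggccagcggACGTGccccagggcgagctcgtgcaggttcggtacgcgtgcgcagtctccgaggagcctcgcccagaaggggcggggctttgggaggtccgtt
Searched on both strands, ACGTG, which also lies inside the E-box, was in the windows of 9 of the 30 genes of the set that had an entry (30.0%) and of 29.0% of 9594 tested genes with an entry. CCAAT was in 12 of 30 (40.0%, against 42.8%), CACGTG in 4 of 30 (13.3%, against 11.5%), and the sterol response element TCACNCCAC in 1 of 30, that of Acsl1 (3.33%, against 1.44%). TATAAA was in 0 of 30 (8.7% of tested genes). These are matches of letters in a window, and the last 2 shares rest on 1 and 0 genes.

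Beside these rises, the summed level of 9 monocyte and border macrophage markers was 1174 to 1261 CPM with co-culture, against 710.3 to 751 CPM in controls. Only 4 of them were tested, of which 3 were called higher, Pf4, Mrc1 and Ms4a7, and 0 lower. The fourth, Ccr2, had 1.52 ± 0.375 and 1.51 ± 0.103 CPM. Among those with too few counts to test, Lyve1 had 3, 5 and 4 counts in controls and 0 in each co-cultured library. F13a1 had 5, 4 and 9 counts in controls and 24, 12 and 9 with co-culture. Ly6c2, a defining monocyte gene, had 0.0162 ± 0.0281 CPM after co-culture and 0 in controls. The part of these cells in the rise of Plin2 and Hilpda was not tested. Of 6 other lipolysis genes tested, 0 rose and 4 fell (66.7% called, against 50.9% of all genes). Mgll, which completes triglyceride breakdown by cutting monoacylglycerol, had the largest fall of them. It went from 70.3 ± 2.73 to 5.28 ± 1.02 CPM (a 13.3-fold difference, edgeR adjusted p = 2.53e-25). Abhd6, another monoacylglycerol lipase, fell from 14.2 ± 1.44 to 8.97 ± 1.08 CPM, and the phospholipase Ddhd2 from 55.7 ± 1.47 to 49.1 ± 1.39 CPM.

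Fatty acid activation was represented by 4 long-chain acyl-CoA synthetases, of which 2 rose, 1 fell and 1 did not pass the test. That is 75% called, against 50.9% of all genes, with a median log2 fold change of 0.27. Acsl4, which prefers arachidonate and other polyunsaturated chains, spanned 71.2 to 82.3 CPM in controls and 107 to 126 CPM with co-culture, a 1.55-fold rise (log2 fold change 0.63 ± 0.06, SE; adjusted p = 2.75e-09). Acsl1, the abundant form of fat and inflamed macrophages, rose from 46.3 ± 1.67 to 63.2 ± 1.59 CPM (adjusted p = 1.40e-07). Acsl3, which sits on the endoplasmic reticulum and on nascent droplets, fell from 9.65 ± 0.864 to 7.24 ± 0.23 CPM (adjusted p = 0.00623). Acsl5 had the highest FPKM of the 4 and was not called, at 109 ± 2.01 and 116 ± 1.36 CPM (log2 fold change 0.10 ± 0.05, adjusted p = 0.121).

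Within the summed FPKM of the 4 synthetases, the share of Acsl4 was 24.4 ± 1.23% in controls and 31.1 ± 2.03% after co-culture, and that of Acsl5 was 57.8 ± 0.456% and 50.9 ± 1.79%. The libraries of both groups did not overlap in either share. Of 15 other activation genes tested, 3 rose and 3 fell (40% called, against 50.9% of all genes). The list is wider than activation, as it takes in acyl-CoA thioesterases (Acot genes), which split acyl-CoA again. Acot2, from 23.3 ± 0.106 to 27.5 ± 1.61 CPM, is among the 3 that rose. Slc27a1, a fatty acid transport protein with acyl-CoA synthetase activity, rose from 261 ± 4.44 to 435 ± 5.74 CPM, while the mitochondrial acetate-activating Acss1 fell from 43 ± 2.8 to 28.8 ± 0.35 CPM and Acsf2 from 40.9 ± 2.77 to 32.2 ± 0.275 CPM.

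**Figure D3:**
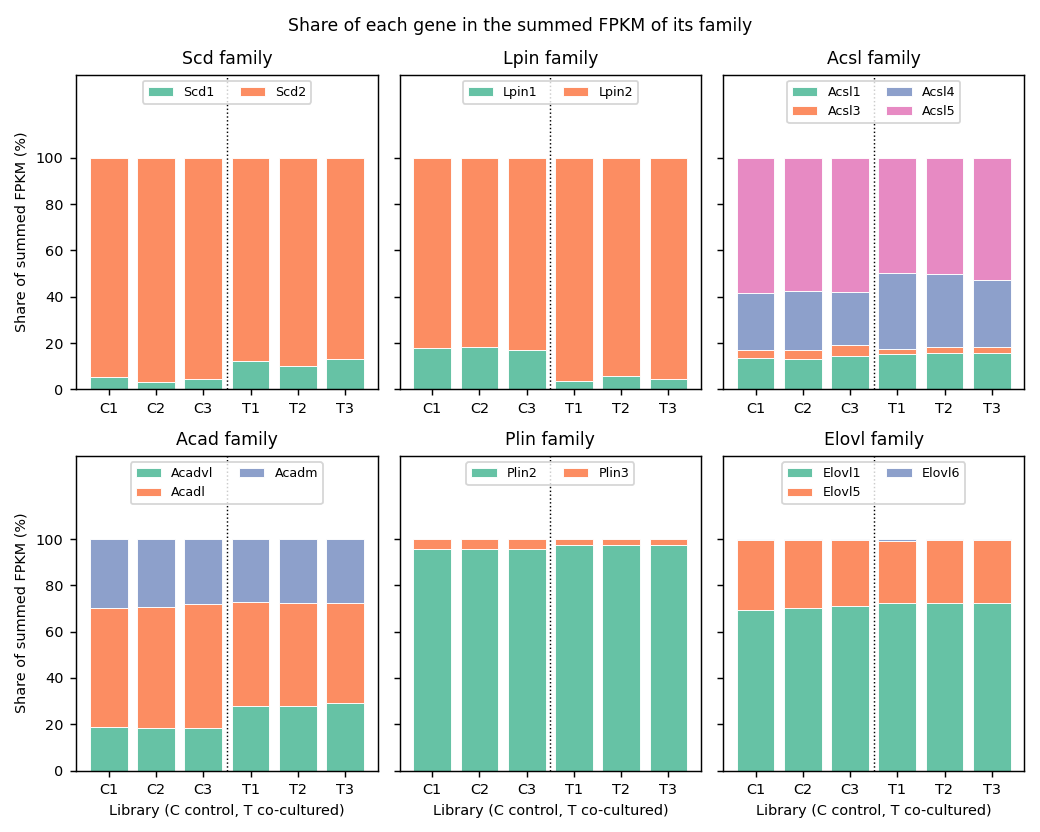
Share of each gene in the summed FPKM of its family in each library (stacked bars to 100%; C1 to C3 are control libraries and T1 to T3 Treg co-cultured libraries). The shares of Scd1, Acsl4 and Acadvl are larger in the co-cultured libraries and that of Lpin1 is smaller, with no overlap between groups.

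New synthesis and elongation held 6 genes, of which 1 rose, 3 fell and 2 did not pass the test. That is 66.7% called, against 50.9% of all genes, with a median log2 fold change of -0.13. The cytosolic steps did not move together. Acly, which splits citrate to cytosolic acetyl-CoA, was called higher, from 253 ± 3.42 to 284 ± 6.11 CPM (adjusted p = 0.00364), a call lost under upper-quartile scaling (0.0879), under library totals (0.0653) and in the FPKM table (0.0619 and 0.0612). Acaca, which makes malonyl-CoA and commits carbon to fatty acids, had 46.8 ± 3.97 and 41.5 ± 2.07 CPM (edgeR adjusted p = 0.0315). Its call was lost in 7 of 17 alternatives: without control replicate 1 (0.251), without control replicate 2 (0.0556), without co-cultured replicate 1 (0.05003), without co-cultured replicate 2 (0.139), with DESeq2 (0.106) and in the FPKM table (0.0569 and 0.0563). Fasn, the synthase that builds palmitate, spanned 69.7 to 73.5 CPM in controls and 42.5 to 47.5 CPM with co-culture, 1.55-fold lower (log2 fold change -0.64 ± 0.06, SE; adjusted p = 1.39e-10), and held its call in all 17 alternatives.

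Among the elongases, Elovl5, which lengthens polyunsaturated chains, fell from 56.5 ± 2.2 to 48 ± 1.12 CPM (adjusted p = 0.00138). Elovl1, which makes very long saturated chains, was not called at 88.1 ± 6.68 and 83.1 ± 1.18 CPM (adjusted p = 0.228), but was called lower under upper-quartile scaling (0.0229), under library totals (0.0296) and in the FPKM table (0.0479 and 0.0496). Elovl6, which extends palmitate to stearate, stood at 1.96 ± 0.424 and 1.94 ± 0.591 CPM (log2 fold change -0.02 ± 0.26, adjusted p = 0.953). Of 13 other genes of synthesis and elongation tested, 0 rose and 5 fell (38.5% called, against 50.9% of all genes). They included Hacd2 and Hacd3, dehydratases of the elongation cycle, which fell from 34.6 ± 1.83 to 26.4 ± 1.46 CPM and from 41.5 ± 1.54 to 33.9 ± 2.63 CPM, and Tecr, the reductase that ends each cycle, from 108 ± 6.38 to 95.8 ± 2.88 CPM.

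The 4 desaturases split, 2 higher, 1 lower and 1 not called (75% called, against 50.9% of all genes). Their median log2 fold change was -0.04. Scd1 and Scd2 are neighbouring genes on chromosome 19 whose products place the same double bond in saturated chains, and in mouse brain Scd2 is the main form. Scd2 (chromosome 19, 44293674 to 44306864, plus strand) had 45.3, 42.3 and 43.4 CPM in controls and 24.6, 23.8 and 24.6 CPM with co-culture, with no overlap. It fell 1.8-fold (log2 fold change -0.85 ± 0.07, SE; edgeR adjusted p = 3.33e-12). Against a 1.5-fold change its adjusted p was 8.51e-04, and 0.0509 with DESeq2 and 0.0865 in the FPKM table at a pseudocount of 1.

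Scd1 (chromosome 19, 44394455 to 44407879, minus strand) was low, at 2.22, 1.21 and 1.74 CPM in controls and 3.09, 2.32 and 3.35 CPM with co-culture. The groups were separated only narrowly, between control replicate 1 and co-cultured replicate 2, and in FPKM these libraries overlapped. Scd1 was called higher (log2 fold change 0.74 ± 0.24, SE; adjusted p = 0.0118), a call lost with DESeq2 (0.0504), in the FPKM table at a pseudocount of 0.1 (0.0593), without co-cultured replicate 3 (0.0639) and without control replicate 2 (0.0846). Its share of the summed FPKM of both genes was 4.23 ± 1.06% in controls and 11.9 ± 1.79% after co-culture. Any reads that match both paralogs could have been split or dropped in counting, so the separate values of Scd1 and Scd2 carry that uncertainty. How many reads match both was not tested. The sum of both went from 8.55 ± 0.426 to 4.95 ± 0.171 FPKM.

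Fads1 and Fads2, which insert double bonds into polyunsaturated chains, are also neighbours on chromosome 19. Fads1 rose from 70.8 ± 3.53 to 84.2 ± 0.442 CPM (adjusted p = 3.70e-04). Fads2 had 3.53 ± 0.72 and 2.82 ± 0.617 CPM and was not called (log2 fold change -0.33 ± 0.21, adjusted p = 0.184). Myelin-forming oligodendrocytes also express desaturases and elongases at high levels. In these libraries 6 of 8 oligodendrocyte lineage markers were lower and 2 higher after co-culture. Mobp had the largest fall, from 4.01 ± 0.707 to 0.24 ± 0.178 CPM. The 2 higher were Cnp, from 53.8 ± 3.78 to 129 ± 2.53 CPM, and Pdgfra, from 0.484 ± 0.0741 to 1.86 ± 0.577 CPM. The list summed to 316 to 337 CPM in controls against 292 to 307 CPM with co-culture. The part of oligodendrocyte transcripts in the fall of Scd2 was not tested. Of 3 other desaturation genes tested, 1 was called (33.3%, against 50.9% of all genes). It was Degs1, the ceramide desaturase, which fell from 135 ± 4.73 to 94 ± 4.92 CPM. The other Scd genes of the locus, Scd3 and Scd4, had at most 2 counts in any library.

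All 7 genes of mitochondrial oxidation were called, 5 lower and 2 higher, where 50.9% of all genes tested were called. Their median log2 fold change was -0.34. Both genes that rose act early. Cpt1a, the outer-membrane carnitine palmitoyltransferase that controls entry into mitochondria, rose from 296 ± 5.22 to 353 ± 10.1 CPM (log2 fold change 0.25 ± 0.05, SE; adjusted p = 4.27e-05), while its inner-membrane partner Cpt2 fell from 18.6 ± 0.951 to 14.7 ± 1.14 CPM (adjusted p = 0.00288).

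The acyl-CoA dehydrogenases differ in the chain length they prefer. Acadvl, for the longest chains, was called higher, from 34.8 ± 0.737 to 39.8 ± 2.2 CPM (edgeR adjusted p = 0.0162). That call was lost under upper-quartile scaling (0.131), under library totals (0.113), in the FPKM table (0.0923 and 0.0930), without co-cultured replicate 3 (0.0921) and without control replicate 1 (0.0649). Acadl, for long chains, spanned 81.6 to 90.4 CPM in controls and 53.9 to 57 CPM with co-culture and fell 1.57-fold (log2 fold change -0.65 ± 0.06, SE; adjusted p = 2.64e-11). Acadm, for medium chains, fell from 51.6 ± 1.61 to 36.6 ± 1.26 CPM (adjusted p = 6.25e-08). Acadvl made up 18.5 ± 0.26% of the summed FPKM of the 3 dehydrogenases in controls and 28.2 ± 0.884% after co-culture, and Acadl 52.3 ± 1.16% and 44.3 ± 0.906%.

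Hadha and Hadhb encode both subunits of the mitochondrial trifunctional protein, which carries out the remaining steps on long chains. Hadha fell from 251 ± 4.74 to 225 ± 7.45 CPM (adjusted p = 0.00637) and Hadhb from 75.5 ± 2.15 to 59.6 ± 2.98 CPM (adjusted p = 9.01e-06). They lie head to head on chromosome 5, and their promoter windows share 228 bases, so the window of Hadhb, which spans the 85 bases between both genes and reaches into each of them, is shown. Capitals mark the 4 matches to the GC box GGGCGG on either strand, of which the first lies 90 bases before the start of Hadhb.
Hadhb (chr5:30155003-30155302, plus strand): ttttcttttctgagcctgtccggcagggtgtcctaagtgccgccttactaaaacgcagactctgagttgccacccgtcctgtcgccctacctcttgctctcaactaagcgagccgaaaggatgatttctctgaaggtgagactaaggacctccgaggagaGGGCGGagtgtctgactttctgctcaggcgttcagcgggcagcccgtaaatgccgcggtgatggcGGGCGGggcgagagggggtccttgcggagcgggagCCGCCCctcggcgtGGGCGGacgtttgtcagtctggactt
GGGCGG was in the windows of 21 of 30 genes of the set (70.0%) and of 68.4% of tested genes with an entry.

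Among 32 other tested genes listed under oxidation, chosen by function, 18 were lower, 3 higher and 11 did not pass (median log2 fold change -0.21). Of all genes tested, 25% fell and 25.9% rose. The list is wider than straight-chain fatty acids, as it takes in the branched-chain dehydrogenases Acadsb and Acad8, both called lower. Abcd2, which imports very long chains into peroxisomes, fell from 93.1 ± 1.87 to 50.9 ± 2.52 CPM (a 1.83-fold difference, adjusted p = 1.50e-14). The peroxisomal oxidase Acox3 fell from 189 ± 8.53 to 118 ± 9.2 CPM, and Acadsb, a mitochondrial dehydrogenase of short branched chains, from 53.8 ± 0.925 to 36.5 ± 1.28 CPM. The co-cultured libraries also differed in the share of counts from mitochondrially encoded genes, 0.700 ± 0.0684% against 1.36 ± 0.0347% in controls (SD, n = 3). Its part in the fall of the oxidation genes was not tested.

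**Figure D4:**
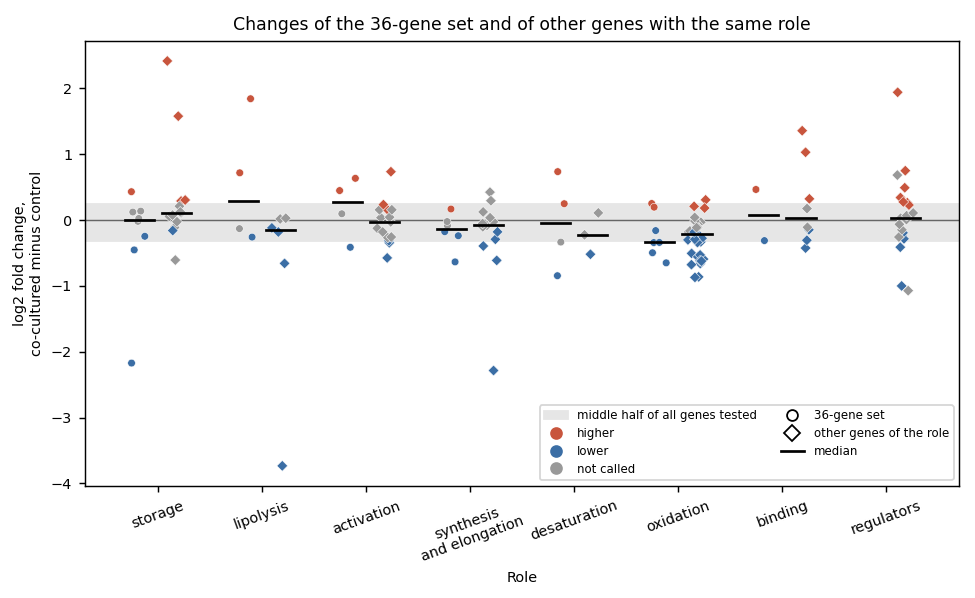
log2 fold change (co-cultured minus control) of the genes of the 36-gene set (circles) and of other tested genes with the same role (diamonds); black bars are medians, the grey band runs from the lower to the upper quartile of all genes tested, and red, blue and grey mark genes called higher, lower or not called. In the oxidation role both medians lie below 0, at -0.34 and -0.21.

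Both fatty acid binding proteins of the set changed, in opposite directions. Fabp3, the heart-type form, rose from 33.5 ± 5.91 to 46.2 ± 1.44 CPM (log2 fold change 0.46 ± 0.09, SE; adjusted p = 4.36e-04), with control libraries from 28 to 39.7 CPM and co-cultured ones from 44.8 to 47.7 CPM. Fabp4, the form of fat cells and macrophages, fell from 42.2 ± 3.44 to 34 ± 2.67 CPM (adjusted p = 6.38e-04). Endothelial cells also express Fabp4. Of the 5 endothelial markers 3 were higher and 1 lower, and Cldn5 was near 0 at 0.0315 ± 0.0546 CPM after co-culture. Kdr rose from 6.21 ± 0.472 to 33.7 ± 3.51 CPM, Pecam1 from 4.17 ± 0.742 to 18.1 ± 1.01 CPM and Cdh5 from 0.78 ± 0.283 to 2.82 ± 0.355 CPM. Flt1, most of the list's sum in controls, fell from 95.6 ± 5.75 to 47 ± 4.46 CPM. The list summed to 104 to 112 CPM in controls and 94.3 to 109.8 CPM with co-culture. The part of such cells in the fall of Fabp4 was not tested.

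Of 8 other genes of uptake and binding tested, 3 rose and 3 fell (75% called, against 50.9% of all genes). Cd36, a scavenger receptor that takes up fatty acids and oxidized lipoproteins, rose from 768 ± 14 to 1567 ± 115 CPM (2.04-fold, adjusted p = 3.26e-17). Fabp7, the brain-type binding protein, rose from 3.85 ± 0.194 to 9.86 ± 1.28 CPM, and Acbd3 from 87.3 ± 1.76 to 109 ± 6.1 CPM. Lpl, lipoprotein lipase, fell from 5379 ± 174 to 4350 ± 279 CPM. The other falls were Dbi, from 32.7 ± 3.6 to 24.4 ± 1.95 CPM, and Fabp5, from 968 ± 84.6 to 874 ± 59 CPM with overlap. Among 21 regulators of these pathways tested, 7 rose and 5 fell (57.1% called, against 50.9% of all genes). Nr1h3, the oxysterol receptor LXR alpha, rose from 4.09 ± 0.372 to 15.7 ± 0.734 CPM (3.84-fold, adjusted p = 9.85e-15). Hif1a, the hypoxia factor subunit, rose from 111 ± 3.95 to 187 ± 5.94 CPM, and Srebf2, the activator of sterol synthesis, from 122 ± 5.68 to 172 ± 10.1 CPM. Of the 5 that fell, Mlxipl changed most, from 8.65 ± 0.48 to 4.31 ± 0.336 CPM, and was called beyond 1.5-fold. The others were Mid1ip1, Rxra, Scap and Ppard.

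In 4 pairs of the set the genes are close neighbours, with starts 86 to 124700 bases apart. On chromosome 19, which holds 7 of the 36 genes, Scd1 was called higher and Scd2 lower across 114205 bases between starts. Fads1 rose beside Fads2, which was not called, and Gpam was called lower beside Acsl5, which was not called. Hadha and Hadhb, the closest pair, were both called lower.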

How the data were processed

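Trizol-extracted RNA was turned into cDNA (SMART-Seq HT) and Nextera XT libraries, per the labels' protocols. STAR, HTSeq 0.11.2 and GRCm38 are named in the submitters' processing notes, and the sources used here do not give annotation release, strandedness or counting options. Depth was 16972758 to 22084542 counts per library. The authors deposited raw read counts per gene in 2 sheets; the sheet with Ensembl identifiers was used, and all 36 genes had equal counts in the other. The authors also deposited FPKM values, which come from the same counts (the implied gene length was constant within a relative 1e-06 for 12011 of 12011 genes checked).

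Tests were run on the counts with edgeR 4.0.16 in R 4.3.3 (alternatives also used limma 3.58.1 and DESeq2 1.42.0): default filterByExpr, TMM scaling, a robust quasi-likelihood fit on group alone (legacy = TRUE), two-sided F-test, Benjamini-Hochberg over all 13274 genes tested. The SE of a log2 fold change is its size over the square root of F. Changes beyond 1.5-fold were tested with glmTreat. The labels do not say whether the 3 samples of a group are from separate animals or cultures; p values therefore reflect how far these samples differ, which may be technical; intervals from counts without molecular identifiers would cover counting error only. Same-group libraries differed by more than sampling noise (chi-square per gene of 3.17 to 9.63), so none was a copy.

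The 36 genes, their roles, the 137 other pathway genes and the markers were chosen by function with earlier results of these data known, so counts over them are descriptions. Of the 137, 6 were joined through their identifiers because the table uses older names. By the naming rule, all 36 genes are named (values per sample for those beyond 1.5-fold and for Plin2, Pnpla2, Scd1 and Scd2), and per role up to 3 other genes called with the smallest adjusted p and at least 5 CPM. Some further called genes, among them Acot2, Soat1, Lpl and Mlxipl, are named outside that rule. Sequences are from RefSeq (GRCm38.p6), where 30 of the 36 genes had a promoter entry; the windows shown were chosen after values were seen, in place of the planned largest rises and falls. On simulated data of the same size (13274 genes) the test recovered 79.1% of 67 genes changed 1.5-fold, 95.5% of 67 changed 2-fold and 100% of 66 changed 4-fold. It made 8 false calls. The test against a 1.5-fold change called 0%, 83.6% and 98.5% of these genes. Far fewer genes were changed there than the 50.9% called in the data, so these shares may not carry over.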

Additional observations from a re-analysis of the deposited data

How the results depend on the processing

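Results were recomputed under 17 alternatives: 3 other scalings, 2 other filters, DESeq2, limma-voom, 2 pseudocounts on the FPKM table, the other count sheet, a replicate block and each of 6 libraries left out. Of 594 recomputed values of single genes of the set, 548 kept direction and side of the threshold, 26 lost their call, 8 gained one and 12 changed sign. The 12 belong to genes not called. For Dgat1 they were -0.048 under upper-quartile scaling, -0.042 under library totals, and -0.043 and -0.040 in the FPKM table at pseudocounts of 0.1 and 1. Over the 6 fits that leave out 1 library, log2 fold changes ranged from -0.022 to 0.063 for Dgat1, from -0.047 to 0.020 for Lpin2, from -0.26 to 0.58 for Dgat2 and from -0.30 to 0.13 for Elovl6. Counts of the set called higher or lower stayed within 1.5 times of 11 and 15. Under upper-quartile scaling, under library totals and in the FPKM table at both pseudocounts, 2 lipolysis genes were called lower in place of 1, 0 synthesis and elongation genes higher in place of 1, and 1 oxidation gene higher in place of 2. These settings move the median of all genes by at most -0.07 and the share of called genes that are higher from 50.8% to between 40% and 41%. Of the desaturases, 1 was higher in place of 2 with DESeq2 and in the FPKM table at a pseudocount of 0.1. With each library left out in turn, desaturases called higher ranged from 1 to 2 and oxidation genes called higher from 1 to 2. Genes beyond 1.5-fold numbered 791 in place of 1500 in the FPKM table at a pseudocount of 1 (this result's alternatives were chosen after seeing the data); the causes were not tested. In that test Acadl was added under upper-quartile scaling (0.0271) and library totals (0.0352). The titles number both groups 1 to 3, and same-numbered samples deviated from their group means with correlations of -0.0332, -0.0228 and -0.0266. From 3 libraries per group such values cannot show whether samples were paired. The labels state no pairing, and another numbering in the titles was not examined. With the replicate block 3448 genes were called higher and 3307 lower, against 3432 and 3320, and no gene of the set changed its call. Low counts limit Dgat2, Elovl6, Scd1 and G0s2.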
